A study of Mus musculus with 8 samples.

Results

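The peroxisome proliferator-activated receptors (Ppara, Ppard and Pparg), the retinoid X receptors (Rxra, Rxrb and Rxrg) and the liver X receptors (Nr1h2, encoding LXRβ, and Nr1h3, encoding LXRα) were followed in gonadal white fat of mice with and without RAP1. The members were chosen by gene name, and a probe was taken as theirs when its RefSeq transcript belonged to one of them. This gave 8 genes of 19749 named on the array, read by 13 probes of 55668: 3 for Ppara, 2 each for Rxra, Rxrg and Nr1h3, and 1 each for Ppard, Pparg, Rxrb and Nr1h2. RAP1 is the product of Terf2ip, a protein of the telomere-capping shelterin complex that is also found at sites along chromosome arms. The fat came from 4 Rap1-/- and 4 wild-type (WT) mice, all 10 weeks old and on a C57BL6/129SV (90%:10%) background, and each mouse gave 1 one-colour array. The study describes the animals as females and the knockout as whole-body, made by crossing a floxed Rap1 allele to EIIa-cre mice and then breeding out the cre. The labels name no treatment for either genotype. This age was used so that transcription could be read before the knockout mice become obese, and the comparison of genotypes asks which transcripts differ when RAP1 is absent.

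PPARs and LXRs are ligand-activated transcription factors that bind DNA as heterodimers with an RXR. Fatty acids and their derivatives are the natural ligands of PPARs, and oxysterols are those of LXRs. PPARγ is the master regulator of fat cell differentiation and lipid storage, PPARα drives fatty acid oxidation, and PPARδ is expressed in most tissues and promotes the use of fatty acids as fuel. LXRs raise cholesterol efflux and fatty acid synthesis, and both fat cells and macrophages express them.

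The promoters of the members are shown because RAP1 is found at telomere repeats of TTAGGG, and because PPAR, RXR and LXR proteins bind repeats of the half-site AGGTCA. The study states that RAP1 reaches telomere repeats through TRF2, and that on chromosome arms it prefers the motif (TTAGGG)2. A single TTAGGG, as searched here, is less than that motif. In liver the study detected RAP1 within the Ppara gene and not at the Ppara promoter fragments it tested. RefSeq start sites (GRCm38.p6) were available for all 8 genes and gave 14 windows of 250 bases before a start. The window of Ppara (chr15:85735526-85735775, plus strand) is given because 1 of its probes showed the largest difference of the 13 with the scaling used. The window of the first listed start of Pparg (chr6:115360894-115361143, plus strand) carries a half-site, in capitals, whose first base lies 28 bases before the start. The 30 bases of Nr1h3 (chr2:91195070-91195099, minus strand) surround the telomere repeat, in capitals, whose first base lies 52 bases before the second listed start. All are written 5′ to 3′ along the gene.
Ppara: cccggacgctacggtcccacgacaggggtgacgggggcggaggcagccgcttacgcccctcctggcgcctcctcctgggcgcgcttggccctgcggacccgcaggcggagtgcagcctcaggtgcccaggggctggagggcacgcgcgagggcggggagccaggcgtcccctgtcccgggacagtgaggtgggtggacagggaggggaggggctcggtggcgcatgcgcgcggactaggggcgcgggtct
Pparg: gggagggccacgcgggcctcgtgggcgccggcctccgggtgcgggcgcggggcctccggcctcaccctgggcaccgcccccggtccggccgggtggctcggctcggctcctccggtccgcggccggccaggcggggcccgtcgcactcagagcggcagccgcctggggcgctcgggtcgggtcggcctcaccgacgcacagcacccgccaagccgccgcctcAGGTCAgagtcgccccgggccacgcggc
Nr1h3: aggctgctgggaTTAGGGtgggggtgactg
Searched on both strands, TTAGGG was found in 1 of the 14 member windows, that of Nr1h3, and in 9.32% of the 32851 mouse windows of the same length. AGGTCA was found in 4 member windows, 2 of Pparg and 1 each of Rxra and Rxrg, against 14% of all windows. The half-site repeats AGGTCANAGGTCA (spacing of 1 base, the PPAR type) and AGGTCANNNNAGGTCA (spacing of 4 bases, the LXR type), which overlap the half-site search, were found in 0 member windows and in 0.0335% and 0.0152% of all windows. The matches are descriptions of these letters only.

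The signal of every probe is given as log2 relative to the 75th percentile of the processed signal on its array, so that 0 means a signal equal to that percentile and a difference of 1 is a doubling. The percentile lay between 302 and 497 intensity units, and 59.7% to 65.2% of spots on an array were well above background. The knockout was visible in the deleted gene, since 1 probe of Terf2ip was well above background on 4 of 4 WT and 0 of 4 Rap1-/- arrays. The other probe of Terf2ip was higher in Rap1-/- on all arrays (log2 difference 2.38). Which of these probes falls inside the deletion was not given in the sources used here. These were the only probes of 33982 tested to pass a Benjamini-Hochberg adjusted p of 0.05 in limma (0.00589%). The tissue label was met by the fat cell markers, of which 11 of 11 (among them Adipoq, Plin1 and Lep) were well above background on all 8 arrays. Markers of macrophages, fibroblasts, endothelium and mesothelium with a probe were so too, and fewer cells of a type cannot be told apart from less RNA per cell in such bulk samples. Skeletal muscle markers set the arrays apart: their mean over 14 genes, centred on all arrays, was -3.72 and -4.67 in Rap1-/- replicates 1 and 4, and 3.31 and 2.10 in replicates 2 and 3. It ran from -0.84 to 1.97 in WT.

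All 13 member probes were well above background on all 8 arrays and 0 were saturated. Their mean was lower in Rap1-/- for 12 probes and higher for 1, against 59.6% of all tested probes lower. The median difference over the member probes was -0.12, and -0.04 over all tested probes. None of the 13 passed the adjusted threshold (limma adjusted p from 0.897 to 0.987). At an unadjusted p of 0.05, 3 were lower, the third probe of Ppara, the probe of Pparg and the second probe of Nr1h3, where 3.2% of all probes were lower at that level. These directions depended on what the arrays were scaled to: 10 to 12 of the 13 were lower with normexp, quantile or median scaling and with the deposited values, but 4 of 13 were with scaling to the E1A spike-ins. The spike-ins are control RNAs added in fixed amount to each labelling, and with them the median over all tested probes stood at 0.18 and 15.9% of probes were lower. Relative to the 75th percentile, the spike-ins themselves differed by -0.22 (log2, Rap1-/- minus WT). WT replicate 3 carried much of this, with a centred spike-in level of 0.47 against -0.19 to 0.06 on the other 7 arrays, and without it the spike-in difference was -0.09. Spike-in scaling without this array, a setting chosen after seeing the data, left 7 of 13 member probes and 31.4% of all tested probes lower. The knockout arrays occupied positions 3 and 4 and the WT arrays positions 1 and 2 on both slides, so position and genotype cannot be told apart.

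**Figure D1:**
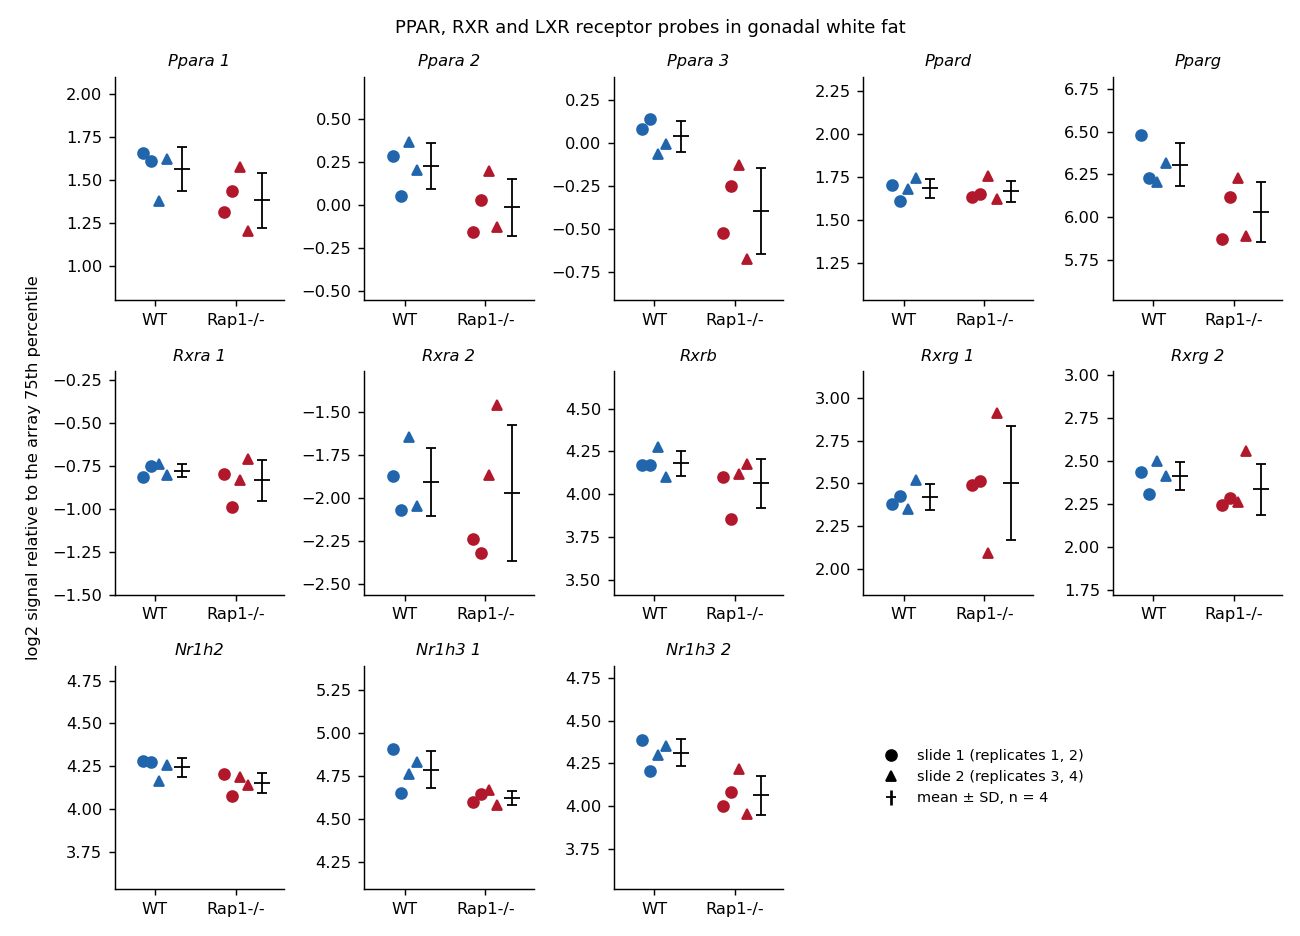
Array by array signal of the 13 member probes (vertical axes, log2 against the 75th percentile of the array, with the same span in every panel; circles, slide 1; triangles, slide 2; bars, mean ± SD, n = 4 arrays per genotype). The genotypes stand apart without overlap on the third Ppara probe, at -0.68 to -0.13 in Rap1-/- and -0.06 to 0.14 in WT, while the Ppard means lie at 1.67 and 1.68.

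Ppara encodes the PPAR that controls genes of fatty acid oxidation. On the third of its probes (A_55_P2071596) the Rap1-/- arrays read -0.52, -0.25, -0.13 and -0.68 and the WT arrays 0.08, 0.14, -0.06 and -0.01. Every knockout array lay below every WT array. This was the 1 member probe of 13 without overlap, where 3.16% of all tested probes had none and 2.27% had none with Rap1-/- lower. The means were -0.40 ± 0.25 and 0.04 ± 0.09 (SD, n = 4 each), a signal 25.9% lower in Rap1-/- (log2 difference -0.43 ± 0.13 SE, 95% interval -0.74 to -0.13). The limma unadjusted p was 0.0110 and the adjusted p 0.897. The two-sided exact permutation test gave p = 0.0286, the smallest that 4 against 4 arrays allow. The difference was -0.50 within slide 1 and -0.37 within slide 2, and it was lower under each of the alternatives, from -0.52 to -0.22.

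The other Ppara probes showed smaller differences with overlapping genotypes. The second (A_55_P2071601) read -0.16, 0.03, 0.20 and -0.13 in Rap1-/-, against 0.28, 0.05, 0.37 and 0.20 in WT. Knockout replicate 3 lay within the WT range, and the other 3 lay below it (log2 difference -0.24 ± 0.11 SE, 95% interval -0.50 to 0.02, limma adjusted p = 0.897). The first probe (A_55_P2055854), the brightest of the 3, read 1.31, 1.43, 1.57 and 1.20 in Rap1-/-, against 1.66, 1.61, 1.38 and 1.62 in WT. Here 2 knockout arrays lay within the WT range (difference -0.19 ± 0.11 SE, 95% interval -0.44 to 0.07, adjusted p = 0.897), and with spike-in scaling the sign turned, to 0.03.

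The ratio of 2 probes on the same array is unchanged by a scaling that shifts all probes of an array equally. Background correction and quantile normalisation can still change it. The log2 ratio of the first to the third Ppara probe was 1.83, 1.68, 1.70 and 1.88 in Rap1-/-, against 1.58, 1.47, 1.44 and 1.63 in WT. The 4 knockout arrays lay above the 4 WT arrays (difference 0.25 ± 0.07 SE). Among 6 such probe pairs within a gene, this one had an exact permutation p of 0.0286, or 0.171 after Benjamini-Hochberg adjustment over the pairs, and did not pass. It was 0.28 with normexp, 0.25 with the deposited values, and 0.24 and 0.26 within the slides. The adjusted p was 0.343 or more for the other 5 pairs. All 3 Ppara probes are assigned to 1 RefSeq transcript, and the stretch each reads was not given in the sources used here.

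Ppard encodes the widely expressed PPAR. Its probe (A_66_P124715) read 1.63, 1.65, 1.76 and 1.62 in Rap1-/-, against 1.70, 1.61, 1.68 and 1.74 in WT. The ranges of the genotypes almost coincided. The means were 1.67 ± 0.06 and 1.68 ± 0.06 (log2 difference -0.02 ± 0.08 SE, limma adjusted p = 0.987). The 95% interval ran from -0.20 to 0.16, and the sign turned with normexp, median and spike-in scaling and with the deposited values.

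Pparg encodes the receptor on which fat cell differentiation depends. Its probe (A_51_P106799) is spotted 10 times on each array, and the SD among these spots lay between 0.03 and 0.08. The Rap1-/- arrays read 5.88, 6.12, 6.23 and 5.89 and the WT arrays 6.48, 6.23, 6.20 and 6.32. Knockout replicates 1 and 4 were the lowest 2 of the 8 arrays, and replicate 3 lay within the WT range. The means were 6.03 ± 0.17 and 6.31 ± 0.12 (SD, n = 4 each). The signal was 17.5% lower in Rap1-/- (log2 difference -0.28 ± 0.11 SE, limma unadjusted p = 0.0405, adjusted p = 0.897). The two-sided exact permutation p was 0.0857. The difference was -0.36 within slide 1 and -0.20 within slide 2. Bright probes as a class lay lower with this scaling: of the 320 probes within 0.25 log2 units of the Pparg mean, 85.6% were lower in Rap1-/- and their median difference was -0.10. With the deposited values the Pparg difference was -0.11 and with spike-in scaling -0.06.

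**Figure D2:**
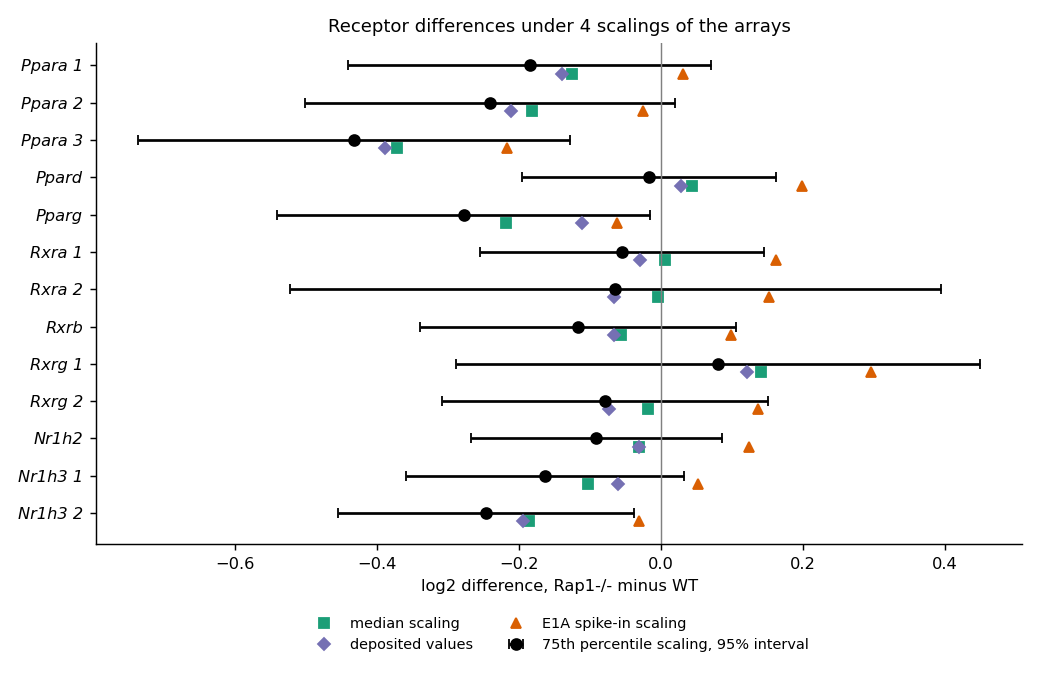
Difference between genotypes of each member probe (horizontal axis, log2, Rap1-/- minus WT; black, 75th percentile scaling with its limma 95% interval; squares, median scaling; diamonds, deposited values; triangles, E1A spike-in scaling). The third Ppara probe lies below 0 under all 4, from -0.43 to -0.22, while 9 of 13 probes lie above 0 with spike-in scaling.

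The RXRs, the shared partners, did not pass the adjusted test on any of their 5 probes (limma adjusted p from 0.903 to 0.977). Rxrb (A_55_P2008609) read 4.10, 3.86, 4.12 and 4.17 in Rap1-/-, against 4.17, 4.17, 4.28 and 4.10 in WT. Only knockout replicate 2 lay below the WT range (log2 difference -0.12 ± 0.10 SE, 95% interval -0.34 to 0.11). The brighter probe of Rxra (A_51_P307370) read -0.80, -0.99, -0.84 and -0.71 in Rap1-/-, against -0.82, -0.75, -0.74 and -0.81 in WT. The knockout values spread around the narrow WT range (difference -0.05 ± 0.09 SE, 95% interval -0.25 to 0.15). Its dimmer probe (A_55_P2074331) differed by -0.06 ± 0.20 SE, and by -0.31 and 0.18 within the slides.

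Rxrg, the RXR of restricted tissue distribution, which is found in skeletal muscle among other tissues, was read by 2 probes that differed in direction. The first (A_51_P513311) read 2.49, 2.51, 2.09 and 2.91 in Rap1-/-, against 2.38, 2.43, 2.35 and 2.52 in WT. Knockout replicate 3 was the lowest of all arrays and replicate 4 the highest (log2 difference 0.08 ± 0.16 SE, limma adjusted p = 0.956). The second (A_55_P2044359) read 2.24, 2.28, 2.26 and 2.56 in Rap1-/-, against 2.44, 2.30, 2.5 and 2.41 in WT (difference -0.08 ± 0.10 SE, adjusted p = 0.927). Replicate 4 was again the highest array.

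The LXRs were lower on all 3 of their probes with the percentile scaling, and none passed the adjusted test. Tested probes within 0.25 log2 units of each were mostly lower too. The share was 67.3% for Nr1h2, 73.1% for the brighter Nr1h3 probe and 67.6% for the second Nr1h3 probe. With the deposited values the differences of these 3 LXR probes were -0.03, -0.06 and -0.19 in that order. Nr1h3, the LXR that is abundant in fat, liver and macrophages, read 4.00, 4.08, 4.22 and 3.95 in Rap1-/-, against 4.39, 4.21, 4.30 and 4.35 in WT on the second of its probes (A_55_P2128597). The genotypes overlapped only by knockout replicate 3 and WT replicate 2. The signal was 15.7% lower (log2 difference -0.25 ± 0.09 SE, 95% interval -0.46 to -0.04, limma unadjusted p = 0.0258, adjusted p = 0.897). The difference was -0.26 within slide 1 and -0.24 within slide 2, and -0.03 with spike-in scaling. The brighter probe (A_66_P120249) read 4.60, 4.65, 4.67 and 4.58 in Rap1-/-, against 4.91, 4.65, 4.76 and 4.83 in WT (difference -0.16 ± 0.09 SE, adjusted p = 0.897; 0.05 with spike-in scaling). Nr1h2, the LXR expressed in most tissues, read 4.21, 4.08, 4.19 and 4.14 in Rap1-/-, against 4.28, 4.28, 4.16 and 4.26 in WT (A_55_P1978481). Knockout replicates 2 and 4 lay below the WT range and the other 2 within it (difference -0.09 ± 0.08 SE, adjusted p = 0.905; 0.12 with spike-in scaling).

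Because PPARs and LXRs act with an RXR, each was also set against Rxra on the same array. The genotype difference of this log2 ratio was -0.13 ± 0.15 SE for Ppara, 0.04 ± 0.08 for Ppard, -0.22 ± 0.15 for Pparg, -0.04 ± 0.06 for Nr1h2 and -0.11 ± 0.10 for Nr1h3. None of the 5 passed (two-sided exact permutation tests, Benjamini-Hochberg adjusted p from 0.619 to 0.629). Single arrays moved these values: without Rap1-/- replicate 4 the difference was -0.03 for Ppara, -0.14 for Pparg and -0.05 for Nr1h3, and without WT replicate 3 it was -0.21 for Ppara. Processing moved them too: with normexp the difference was -0.07 for Ppara, -0.18 for Pparg and -0.02 for Nr1h3. With the deposited values it was -0.11, -0.08 and -0.03 in that order. Differences between genes in absolute level were not compared, since probes differ in their hybridisation.

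Some members varied together among mice of the same genotype. With each genotype centred on its mean, the brightest probes of Ppara and Pparg correlated at r = 0.85 over the 8 arrays. The correlation was 0.91 for Rxra and Rxrb, 0.73 for Pparg and Nr1h3, and 0.74 for Ppard and Nr1h3. Ppara and Pparg ran against Rxra, at -0.58 and -0.63. These are descriptions over 8 arrays that share one scaling, with no test. Of 13961 other named genes well above background on all arrays, those whose values followed Ppara most closely were Marveld1 (r = 0.98), Timp3, an inhibitor of metalloproteinases (0.97), Csnk1e, a casein kinase (0.97), Ppl, which encodes periplakin (0.96), and Kif13a, a kinesin (0.96). Those nearest to Pparg were Dennd2d (0.98), Stard10 (0.98), Ttc39c (0.98), Rgs9bp (0.98) and Ciart, a circadian transcriptional repressor (0.97). For each receptor these are the highest of 13961 values over 8 arrays, so high values follow in part from the choice. They were not tested.

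Markers of the cell types in fat were read on the same arrays as the receptors. The fat cell markers were lower in Rap1-/- for 10 of 11 genes (median log2 difference -0.21), where 54.2% of all named genes tested were lower. Their array means were -0.19 to 0.02 in Rap1-/- and 0.01 to 0.17 in WT. Among them Fabp4 (9.39 in Rap1-/- and 9.67 in WT) and Cidec (8.30 and 8.61) were bright. Bright probes lay lower as a class with this scaling, as given for Pparg. The marker medians here are for the percentile scaling only. The macrophage markers were higher for 8 of 10 (median 0.16), with means of -0.03 to 0.26 and -0.16 to 0.12. The fibroblast and preadipocyte markers were higher for 8 of 10 (median 0.20), with means of 0.07 to 0.12 and -0.38 to 0.23. The mesothelial markers were higher for 8 of 8 (median 0.63), with means of 0.14 to 0.43 and -1.06 to 0.25. In both lists WT replicate 3 was the lowest array and the genotypes overlapped. The medians were -0.03 for endothelium, -0.14 for brown and beige fat, -0.02 for lymphocytes and 0.15 for ovary and oviduct, of whose 8 markers Amh and Zp3 were not kept for testing. None of these genes passed the adjusted test. Over the 8 arrays, Pparg correlated with the fat cell marker mean at r = 0.78 (exact permutation p = 0.0208) and rho = 0.69 (exact p = 0.0694). Nr1h3 correlated with it at r = 0.77 (exact p = 0.0209) and rho = 0.81 (exact p = 0.0218). Both relations rested on Rap1-/- replicate 4 and WT replicate 1, the 2 arrays farthest from the median marker level, without which r was 0.32 and 0.39. Nr1h3 ran against the macrophage mean at r = -0.78 (exact p = 0.0226) and rho = -0.83 (exact p = 0.0154), and r was -0.75 without the 2 arrays farthest from the median. This relation depended on the scaling, with r = 0.01 under median scaling and r = 0.63 under spike-in scaling. None of the 32 relations computed between 8 receptors and 4 marker lists passed (exact permutation tests, smallest Benjamini-Hochberg adjusted p for r 0.172), and 9 did with spike-in scaling, where receptors and markers of an array share one added term.

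The skeletal muscle markers were lower in Rap1-/- on all 14 genes (median -1.31). The 2 knockout replicates at their low end were also the lowest 2 arrays for all 3 Ppara probes, for Pparg and for both Nr1h3 probes. These include every member probe with an unadjusted limma p under 0.05. Myh4, Ckm and Mylpf, a myosin heavy chain, the muscle creatine kinase and a myosin light chain, were the 3 of the 14 not well above background on every array. Relations with the muscle mean were computed on the brightest probe of each gene only, so not on the third Ppara or second Nr1h3 probe. Over all 8 arrays r with the muscle mean was 0.79 for Ppara (exact permutation p = 0.0217) and 0.77 for Pparg (exact p = 0.0269), with rho of 0.62 (exact p = 0.115) and 0.55 (exact p = 0.171). Both rested on the 2 arrays that stood apart, since r over the other 6 was 0.23 and 0.03. Rxra ran against the muscle mean at r = -0.70 (exact p = 0.0409) and rho = -0.93 (exact p = 0.00223, adjusted 0.0714), and r over the other 6 arrays was -0.88. For Rxra r was weaker with other scalings of all 8 arrays, at -0.58 with median scaling and -0.30 with spike-in scaling. These relations are among the 32 and did not pass. With the muscle marker mean as a covariate the differences were -0.13, -0.20 and -0.35 on the 3 Ppara probes, -0.21 for Pparg, and -0.14 and -0.21 for Nr1h3. Leaving out each array in turn gave -0.35 to -0.22 for Pparg and -0.52 to -0.34 for the third Ppara probe. The part of cell makeup in the receptor differences was not tested beyond these values.

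**Figure D3:**
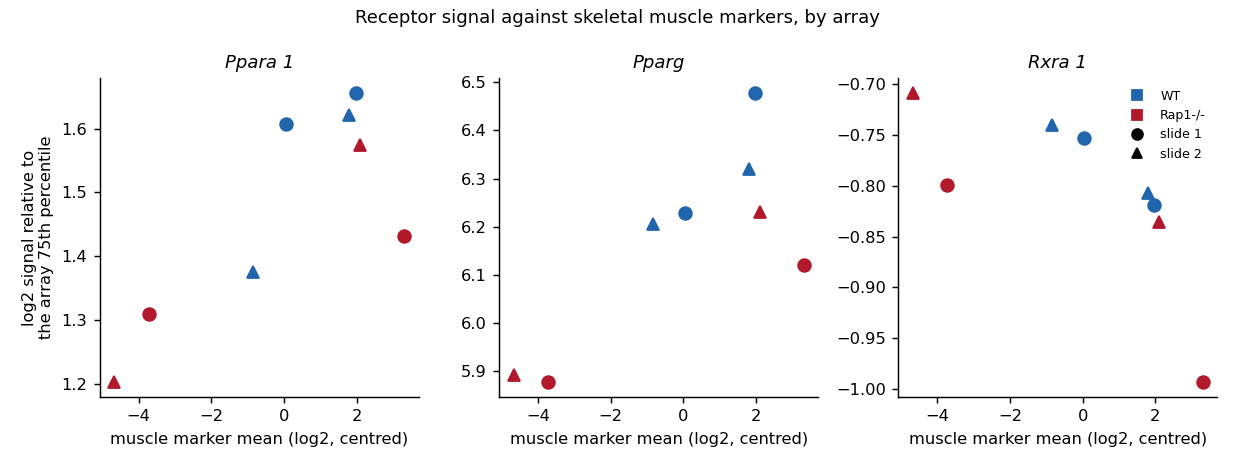
Signal of the brightest probe of Ppara, Pparg and Rxra (vertical axes, log2 against the 75th percentile of the array) against the centred mean of 14 skeletal muscle markers (horizontal axis, log2), 1 point per array. The Rap1-/- arrays at -3.72 and -4.67 on the horizontal axis hold the lowest Ppara and Pparg values, while Rxra is lowest, at -0.99, on the array at 3.31.

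Genes through which these receptors act were examined next, as lists of known coregulators, partners, ligand-supplying proteins and targets. In each of the 7 lists 0 genes passed the adjusted test in either direction (limma), so the lists are described by counts. Over all 14924 named genes tested, 8093 were lower and 6831 higher, and the median difference was -0.01. An unadjusted p under 0.05 was seen for 4.46%, and for 2.47% with Rap1-/- lower. The genotypes did not overlap for 465 of them. In the lists this held for 3 of 33 PPARγ targets, 1 of 27 PPARα targets and 4 of 21 LXR targets. It held for 1 of 19 coregulators, 3 of 22 ligand supply genes, and 0 PPARδ targets or RXR partners. The genes named below had the smallest p of their list, a choice that favours genotypes without overlap. The medians below are for the percentile scaling. With spike-in scaling they stood at 0.07 to 0.27 in 6 of the 7 lists and at -0.03 for the PPARγ targets, so the directions of the lists other than PPARγ targets, PPARδ targets and RXR partners depend on it.

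The targets of PPARγ, genes of fat storage and fat cell identity, were lower for 24 of 33 genes and higher for 9, with a median log2 difference of -0.24. At an unadjusted p of 0.05, 9 were lower (27.3%) and 0 higher, where 2.47% of all named genes tested were lower at that level. The share over all genes is not matched to this list in brightness. Bright probes lay lower as a class, as given for Pparg, and these counts are for the percentile scaling only. Dgat1, which catalyses the last step of triglyceride synthesis, read 4.26, 4.44, 4.60 and 4.49 in Rap1-/-, against 5.23, 4.85, 4.72 and 4.95 in WT. Its genotypes did not overlap (difference -0.49 ± 0.13 SE, limma adjusted p = 0.897). The same held for Cidec, a lipid droplet protein (-0.31 ± 0.10 SE), and Fabp4, the fat cell fatty acid carrier (-0.27 ± 0.09 SE), both with an adjusted p of 0.897. The other probe of Cidec differed by -0.18. Quantile normalisation put the list median at -0.06, the deposited values put it at -0.07 and spike-in scaling at -0.03. Fat cell markers and PPARγ targets share genes, and the markers were lower too, as given above.

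The targets of PPARα, mostly enzymes of fatty acid oxidation, were lower for 17 of 27 genes and higher for 10 (median -0.06). At an unadjusted p of 0.05, 1 was lower and 1 higher. Pex11a, a protein of peroxisome division, read 5.0, 5.41, 5.45 and 5.36 in Rap1-/-, against 6.02, 5.46, 5.78 and 5.77 in WT, with no overlap (difference -0.45 ± 0.15 SE, limma adjusted p = 0.897). Acadvl, the very long chain acyl-CoA dehydrogenase, differed by -0.26 ± 0.12 SE. Pdk4, the kinase that holds back pyruvate oxidation, differed the other way (0.63 ± 0.27 SE). The list of PPARδ targets, which shares Pdk4 and others with it, was lower for 2 of 10 genes and higher for 8 (median 0.05, but -0.03 without WT replicate 3, 0.00 without Rap1-/- replicate 4 and 0.15 without WT replicate 4), with Cpt1a, the gatekeeper of mitochondrial fatty acid entry, at 0.14 ± 0.14 SE and Hspb7, a small heat shock protein, at 0.62 ± 0.57 SE.

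The targets of LXR, genes of cholesterol efflux and fatty acid synthesis, were lower for 14 of 21 tested genes and higher for 7 (median -0.15, or -0.05 without Rap1-/- replicate 4). At an unadjusted p of 0.05, 2 were lower and 1 higher (14.3% in either direction). Another 3, Abcg8, Apoc2 and Cyp7a1, were not kept for testing. Acaca, the first enzyme of fatty acid synthesis, read 6.86, 8.09, 8.08 and 8.16 in Rap1-/-, against 9.02, 8.19, 8.73 and 8.32 in WT. Its genotypes did not overlap, and knockout replicate 1 lay far below the rest (difference -0.77 ± 0.32 SE, limma adjusted p = 0.897). Its other 2 tested probes differed by -1.01 and -0.86. Arl4c, a small GTPase, differed by -0.27 ± 0.10 SE with no overlap, and Abcg5, a sterol exporter, by 0.93 ± 0.29 SE, both with an adjusted p of 0.897.

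**Figure D4:**
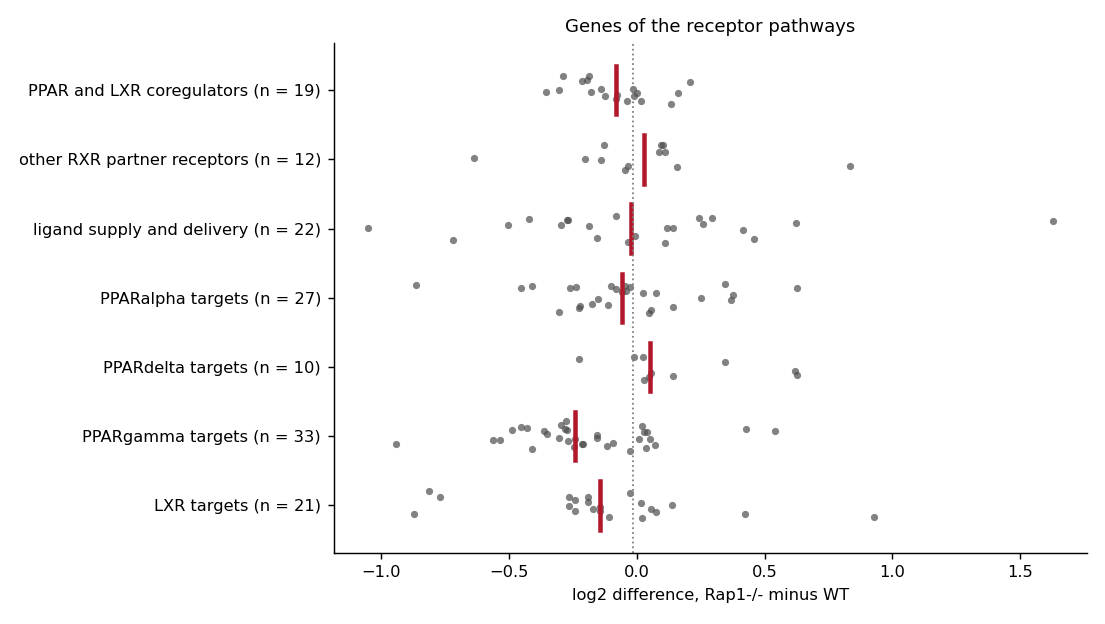
Difference between genotypes of every tested gene in 7 lists (horizontal axis, log2, Rap1-/- minus WT, 75th percentile scaling; points, genes; red bars, list medians; dotted line, median of all named genes at -0.01; n, genes tested). The PPARγ targets have the lowest median, -0.24, and the PPARδ targets the highest, 0.05, which turned to -0.03 without WT replicate 3.

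The coregulators, which carry the receptors' effect on transcription, were lower for 15 of 19 tested genes and higher for 4 (median -0.08). Ncoa1, a coactivator, was the one with an unadjusted p under 0.05 and no overlap. Its signal was 2.76, 2.85, 2.82 and 2.87 in Rap1-/-, against 3.06, 2.99, 3.06 and 2.95 in WT (difference -0.19 ± 0.08 SE, limma adjusted p = 0.897; 0.03 with spike-in scaling), and its other 2 probes differed by -0.10 and -0.01. Ppargc1a, the PGC-1α coactivator of PPARs, read -0.97, -0.53, -0.46 and -0.73 in Rap1-/-, against -0.18, -0.61, -0.19 and -0.48 in WT on its brighter probe. The genotypes overlapped (difference -0.31 ± 0.15 SE, adjusted p = 0.897). The dimmer probe differed the other way (0.24 ± 0.18 SE), at means of -4.01 in Rap1-/- and -4.26 in WT. The lowest readings well above background on an array were -5.52 to -4.68, so the dimmer probe was near that limit. Nrip1, a corepressor, differed by 0.21 ± 0.10 SE.

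Ligand supply and delivery, which covers carriers, lipases, and enzymes of retinoid, sterol and eicosanoid metabolism, was lower for 12 of 22 genes and higher for 10 (median -0.02). At an unadjusted p of 0.05, 3 were lower and 1 higher (18.2% in either direction). Ptgs2, the inducible cyclooxygenase, was dim, with readings of -4.22, -4.21, -3.34 and -4.21 in Rap1-/-, against -5.95, -5.55, -6.67 and -4.32 in WT. It was well above background on 4 of 4 knockout and 1 of 4 WT arrays (difference 1.63 ± 0.46 SE, limma adjusted p = 0.897), so the WT level was mostly not measured. Alox12, a lipoxygenase, read -2.0, -1.89, -2.10 and -1.85 in Rap1-/-, against -1.72, -1.64, -1.33 and -1.45 in WT, with no overlap (difference -0.42 ± 0.11 SE, adjusted p = 0.897). The other receptors that pair with RXR were evenly divided, 6 lower and 6 higher of 12 tested (median 0.03). Among them Nr1i3, the constitutive androstane receptor, differed by -0.64 ± 0.32 SE, Nr4a1, an immediate early gene, by 0.83 ± 0.54 SE and Nr2f2, also called COUP-TFII, by -0.20 ± 0.11 SE. None of the 12 had an unadjusted p under 0.05.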

How the data were processed

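Total RNA (Trizol, RNA integrity numbers 6.5 to 8.5) was labelled with Cy3 and hybridised by the authors to Agilent mouse arrays, 1 per animal. Per the file headers the images were read by Feature Extraction 10.7.3.1 (the study's methods name a different version), which gave the deposited processed signal, median signal and background as linear intensity, with flags of 0 or 1 for outlying, saturated and well above background spots; the array design was built on mm9. The deposited values of the summary table are log2. The submitters' notes name limma without a version. Normexp with an offset of 50 and quantile normalisation gave that table back on every array (lowest r 0.999985), and it served as an alternative.

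Groups came from the sample labels, which call the 4 samples per genotype biological replicates. Of 62976 spots, 3671 controls were left out. The processed signal was taken as log2 minus the 75th percentile of each array, and spots of 1 probe without an outlier flag were averaged. Of 55681 gene probes, 13 lacked a value on an array. A probe was kept when at least 4 of the 8 arrays, of either genotype, read it well above background (33982 probes). Probes were named through RefSeq accessions in a GRCm38.p6 table (26050 probes, 46.8%, with 19749 symbols). The genotype comparison used lmFit and eBayes of limma 3.58.1 in R 4.3.3, without covariates and adjusted by Benjamini-Hochberg over all kept probes, beside exact permutation tests over 70 assignments. The script was tested on simulated data. For lists, the brightest kept probe stood for a gene. Named were all members, up to 3 genes per list with the smallest p, any list gene past the threshold, and the 5 genes most like Ppara and Pparg. Other Terf2ip probes and list genes were named with their values in view. The members, lists and tests were chosen with earlier results of these data known. Alternatives covered background correction, scaling, the deposited table, filters, slide and replicate blocks, a muscle covariate, the variance model and leaving out each array; spike-in scaling without WT replicate 3 was added after seeing the data. Replicate numbers did not pair the samples (correlations of same-numbered deviations -0.21 to -0.10). Each slide held 2 arrays per genotype. The number of arrays limits the precision of every value. Python 3.11.15 with matplotlib 3.10.9 was used for figures and promoters.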

Additional observations from a re-analysis of the deposited data

Results flagged for a closer look

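Among 86 groups of 4 arrays examined for the members and named genes, 6 held 1 array past Dixon's 95% critical value. Chance gives about 1 in 20. The quantity compared was the gap to the nearest of the others divided by the range of the 4 arrays. Rap1-/- replicate 4 read 2.56 on the second Rxrg probe, above the 2.24 to 2.28 of the other 3. WT replicate 3 read 4.16 for Nr1h2, below the 4.26 to 4.28 of the others. Rap1-/- replicate 4 read 1.27 for Nr2f2, below 1.59 to 1.63. Rap1-/- replicate 3 read -3.34 for Ptgs2, above -4.22 to -4.21. WT replicate 3 read -4.53 for Abcg5, below -4.10 to -4.03. Rap1-/- replicate 1 read 6.86 for Acaca, below 8.08 to 8.16.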

How the results depend on the processing

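With 4 arrays per genotype, differences of the size seen for the receptors did not reach an adjusted threshold set by 33982 probes. No member probe passed it under any alternative run. Over the tested probes, 2 passed, but 1 when probes had to be well above background on all 8 arrays, 1 within slide 1 and 0 within slide 2, where fewer probes or arrays entered. The share of all tested probes that were lower was 59.6%, but 69.1% with normexp, 50.9% with quantile, 44.3% with median, 49.2% with deposited values and 15.9% with spike-in scaling. The third Ppara probe, the second Ppara and Nr1h3 probes and Pparg were lower under every alternative run.

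With spike-in scaling 4 of 13 member probes were lower, and the difference turned to 0.031 (first Ppara probe), 0.20 (Ppard), 0.16 and 0.15 (Rxra), 0.10 (Rxrb), 0.14 (second Rxrg probe), 0.12 (Nr1h2), 0.052 (first Nr1h3 probe), 0.027 (Ncoa1) and 0.012 (Nr2f2). List medians were then 0.13 (coregulators), 0.24 (RXR partners), 0.19 (ligand supply), 0.16 (PPARα targets), 0.27 (PPARδ targets), -0.027 (PPARγ targets) and 0.070 (LXR targets), and 9 marker relations passed. Spike-in scaling without WT replicate 3, added after seeing the data, left 7 member probes lower and gave 0.076 (Ppard), 0.053 and 0.12 (Rxra), 0.0095 (Rxrb), 0.044 (second Rxrg probe), 0.022 (coregulator median) and -0.13 (PPARγ target median). The PPARγ target median was -0.059 with quantile, -0.067 with deposited values and -0.15 within slide 2. The coregulator median was -0.021 with median scaling, and that of RXR partners -0.10 within slide 1. Ppard also turned, to 0.036 with normexp, 0.043 with median scaling, 0.028 with deposited values and 5.44e-05 with the muscle covariate. The first Rxra probe was 0.0058 with median scaling and 0.0018 within slide 2, and the second 0.18 within slide 2. The Nr1h2 to Rxra ratio was 0.028 with normexp, Ppard to Rxra -0.022 within slide 2, the first to second Ppara probe -0.028 within slide 1, and the first to second Rxra probe -0.18 within slide 2. Apart from the shift that spike-in scaling adds by construction, the cause of these changes was not tested.

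Leaving out 1 array at a time gave -0.047 to 0.0040 for Ppard, -0.23 to 0.052 for the second Rxra probe, -0.056 to 0.22 for the first Rxrg probe, -0.077 to 0.0078 for the Nr1h2 to Rxra ratio, -0.010 to 0.094 for Ppard to Rxra, -0.054 to 0.13 for the first to second Ppara probe and -0.091 to 0.14 for the first to second Rxra probe. List medians ran from -0.13 to -0.039 (coregulators), -0.047 to 0.066 (RXR partners), -0.065 to 0.070 (ligand supply), -0.11 to -0.043 (PPARα targets), -0.029 to 0.15 (PPARδ targets), -0.26 to -0.19 (PPARγ targets) and -0.18 to -0.049 (LXR targets), so those of RXR partners, ligand supply and PPARδ targets turned when 1 array was left out. The Ppara to Rxra ratio ran from -0.21 (without WT replicate 3) to -0.030 (without Rap1-/- replicate 4). With a replicate block, although the numbers paired no samples, 2 probes passed and 12 of 13 member probes were lower, as without it; it changed no member call, and the adjusted p of the third Ppara probe was 0.887.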
